A study of Mus musculus with 4 samples.

Results

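Interferon-stimulated genes are the genes that cells switch on when interferon binds its receptors. The set described here was a list of 37 such genes named by symbol. No measured value enters the rule, but the list was drawn up with earlier results of these data known. Of these, 35 were found among the 32285 genes of the count matrices. Mx1 and Mx2 were not analysed here.

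Type I interferons signal through the receptor chains Ifnar1 and Ifnar2, and interferon gamma signals through Ifngr1 and Ifngr2. Both receptors activate JAK kinases. After type I interferon, a complex that holds Stat2 and Irf9 binds interferon-stimulated response elements in promoters, and interferon gamma acts largely through gamma-activated sites. The induced proteins include sensors of foreign RNA, antiviral effectors, regulators that shut the pathway down, and chemokines that draw T cells. In injured skin, plasmacytoid dendritic cells and macrophages are known sources of type I interferon.

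Spatial gene expression was measured with Visium, which captures the RNA of a frozen section on printed spots, so that each spot counts the unique molecules (UMIs) of the few cells lying over it. The design crossed wounding with tissue in wildtype mice. The groups were facial skin that was not wounded, facial skin at postoperative day 4, oral mucosa that was not wounded, and oral mucosa at postoperative day 4, with 1 flash-frozen section in each. The labels give neither age nor strain, nor the number of mice behind a section.

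The sections held 671, 1141, 1288 and 430 spots, in that order, and 11939479, 9934290, 7285023 and 3004174 UMIs. Levels are UMIs per 1000000 UMIs of the section (CPM), and every list of 4 values follows the order unwounded facial skin, day 4 facial skin, unwounded oral mucosa, day 4 oral mucosa. The unwounded oral section was uneven, with a median of only 98 UMIs per spot and 523 spots of at least 1000 UMIs. With 1 section per group there is no test between animals and no p-value. The 95% intervals are exact Poisson intervals and cover counting error only. A difference is counted where the CPM differed at least 1.5-fold and the intervals did not overlap, among genes whose UMIs in the pair of sections summed to 20 or more. Genes that met this floor are called measured.

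Some measurements went against, or cut across, the labels. Markers of neutrophils summed to 6109 CPM in the section labelled unwounded facial skin and to 287 CPM in day 4 facial skin, against 40.4 and 3826 CPM in unwounded and day 4 oral mucosa. Sex-linked transcripts also split with wounding: Xist had 1, 909, 0 and 84 UMIs, and the Y-linked Ddx3y had 587, 0, 280 and 0 UMIs. Whatever separates these mice besides wounding cannot be told apart from wounding here. Skeletal muscle markers summed to 52261 and 45188 CPM in the oral sections against 1186 and 944 CPM in the facial ones. The spots of at least 1000 UMIs fell in each section into 2 separate pieces of tissue, defined only by spots that touch on the array. In each section the piece with more spots is called the first, so the first or second pieces of different sections are not counterparts. The labels do not say what these pieces are, and the results below turn on them.

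Letters of the interferon-stimulated response element were frequent in promoters of the set. RefSeq promoter windows on GRCm38.p6, from 250 bases before to 50 after the start of transcription, were matched for 27 of the 35 members. The core of this element, GAAA, any 2 bases, GAAA, was searched on both strands. It was present in 16 of these 27 members (59.3%), against 1079 of 27025 genes with a window (3.99%). The core of the gamma-activated site, TTCNNNGAA, was present in 7 of 27 members (25.9%) and in 9.55% of all genes. A match is a description of the letters and not a measured binding site. The stretches below were picked from the members with a match, among those that the results turn on. Other members that passed the rule in facial skin had a window without a match, namely Ifit2, Cmpk2, Ifi44, Irf9 and Oasl2. Each is written 5′ to 3′ on the strand of its gene, ends before the start of transcription, and has the matches of either strand in capitals, which read TTTC, any 2 bases, TTTC where the element lies on the other strand.

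Isg15, chr4:156200860-156200911, minus strand: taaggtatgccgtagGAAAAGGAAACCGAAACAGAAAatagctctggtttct

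Ifit1, chr19:34640770-34640828, plus strand: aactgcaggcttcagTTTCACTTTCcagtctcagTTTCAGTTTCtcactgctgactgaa

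Ifit3, chr19:34583358-34583431, plus strand: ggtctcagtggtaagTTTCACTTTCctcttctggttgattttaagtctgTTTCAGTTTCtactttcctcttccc

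Ifit3b, chr19:34607754-34607827, plus strand: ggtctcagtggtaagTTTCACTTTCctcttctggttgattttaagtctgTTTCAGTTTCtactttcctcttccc

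Rsad2, chr12:26456548-26456587, minus strand: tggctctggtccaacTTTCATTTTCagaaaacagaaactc

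Bst2, chr8:71537572-71537617, minus strand: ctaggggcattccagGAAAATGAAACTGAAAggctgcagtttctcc

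Gbp3, chr3:142559984-142560029, plus strand: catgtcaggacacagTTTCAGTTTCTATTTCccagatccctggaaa

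Cxcl10, chr5:92349078-92349117, minus strand: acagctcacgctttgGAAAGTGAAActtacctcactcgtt

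Stat2, chr10:128270261-128270300, plus strand: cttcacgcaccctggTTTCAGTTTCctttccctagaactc

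Trim30a, chr7:104465205-104465244, minus strand: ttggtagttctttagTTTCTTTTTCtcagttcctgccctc

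Isg15 held 3 overlapping matches in 1 run, and Ifit1, Ifit3, Bst2 and Gbp3 held 2 each. The first of the Bst2 matches was overlapped by a TTCNNNGAA match, and such an overlap was present in 2 members in all. The stretches of the neighbouring genes Ifit3 and Ifit3b were the same over all 74 bases. The genes themselves are near-identical copies, so their UMIs may have been split or exchanged between them.

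Summed over the 35 members, levels were highest in unwounded facial skin and lowest in day 4 oral mucosa. The sums were 1592 CPM (95% interval 1569 to 1614), 1134 CPM (1113 to 1155), 811 CPM (790.3 to 832) and 750.0 CPM (719 to 782). In tissue sections a lower sum can come from fewer cells of an expressing type or from less RNA per cell, and these cannot be told apart. Ifitm3 weighed heavily in the sums, which without it were 1106, 897, 577 and 497 CPM, in the same order. The order is a description of 4 sections, and the next comparisons show how far single members followed it.

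**Figure D1:**
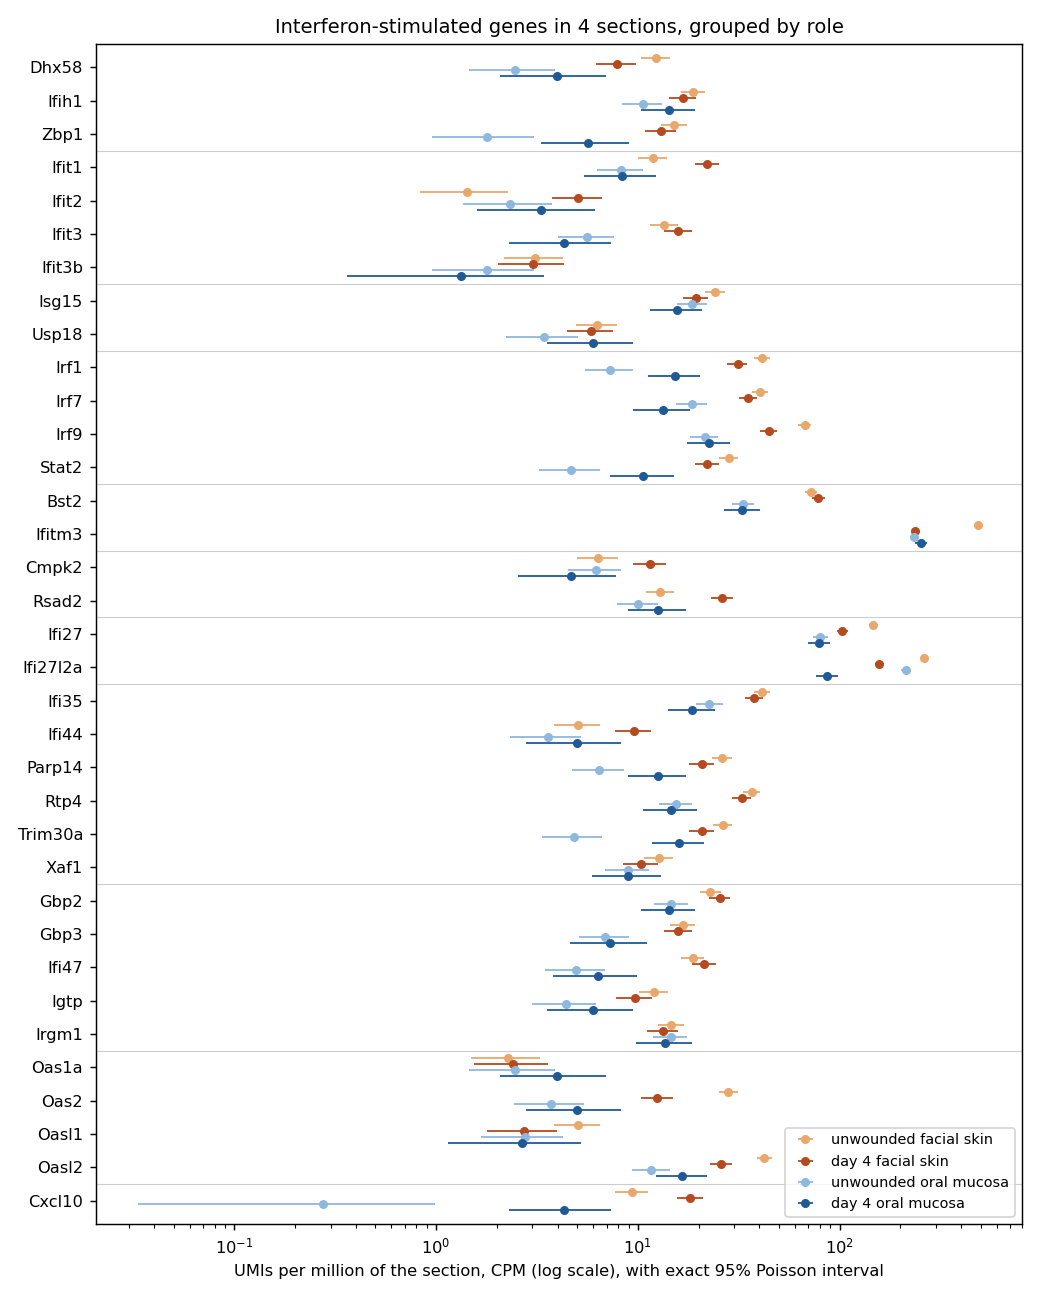
Level of each of the 35 members in the 4 sections, in CPM on a log axis, with members grouped by role between grey lines. Points are section values and bars exact 95% Poisson intervals; Ifit1, Ifit2, Rsad2, Cmpk2, Ifi44 and Cxcl10 have their highest point in day 4 facial skin.

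In facial skin as whole sections, day 4 against unwounded gave 6 members higher and 6 lower of 35, where 6.09% of all 14231 measured genes were higher and 8.59% lower. The 6 higher members were 5 interferon-induced effector genes and the chemokine Cxcl10. They were Ifit1 at 0.89 (95% interval 0.58 to 1.21) on the log2 scale, Ifit2 at 1.82 (95% interval 1.003 to 2.71), Rsad2 at 1.03 (95% interval 0.73 to 1.32), Ifi44 at 0.93, Cmpk2 at 0.85 and Cxcl10 at 0.95. Lower were Oas2 at -1.17 (95% interval -1.48 to -0.87), Ifitm3 at -1.04 (95% interval -1.11 to -0.97), Ifi27l2a at -0.74, Oasl2 at -0.71, Dhx58 at -0.65 and Irf9 at -0.59. The median over members was -0.13, with 10 CPM added to both sides, and -0.03 over all genes. When the neutrophil-rich spots were left out of both sections, 12 members were lower in place of 6. CPM was also averaged over spots of at least 100 UMIs, so that shallow spots count as much as deep ones. For the rule the averages were scaled to the section total, so here the intervals are not those of the UMIs seen. With CPM averaged in this way, 10 were higher and 1 lower, and Dhx58 turned to 0.13.

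That balance hid a split between the 2 pieces of the day 4 facial section. In it, 35 of 35 members were higher in the second piece (478 spots) than in the first (614 spots), where 13.6% of 12995 measured genes were higher and 3.71% lower. Summed levels were 600.0 CPM (95% interval 581 to 619.6) and 2022 CPM (1976 to 2068). Log2 ratios between the pieces ran from 0.63 for Ifi27 to 3.83 for Ifi44, with a median of 2.40. In unwounded facial skin the 2 pieces summed to 1565 and 1675 CPM, with 3 members higher and 5 lower in the second (6.7% and 4.01% of genes). Both day 4 pieces lay outside that narrow range, on opposite sides: 28 of 35 members were higher in the second day 4 piece than in either unwounded piece, and 34 of 35 were lower in the first than in either. These counts, and later ones on the order of pieces, use CPM alone, without the fold and interval limits. They were not made over all genes.

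**Figure D2:**
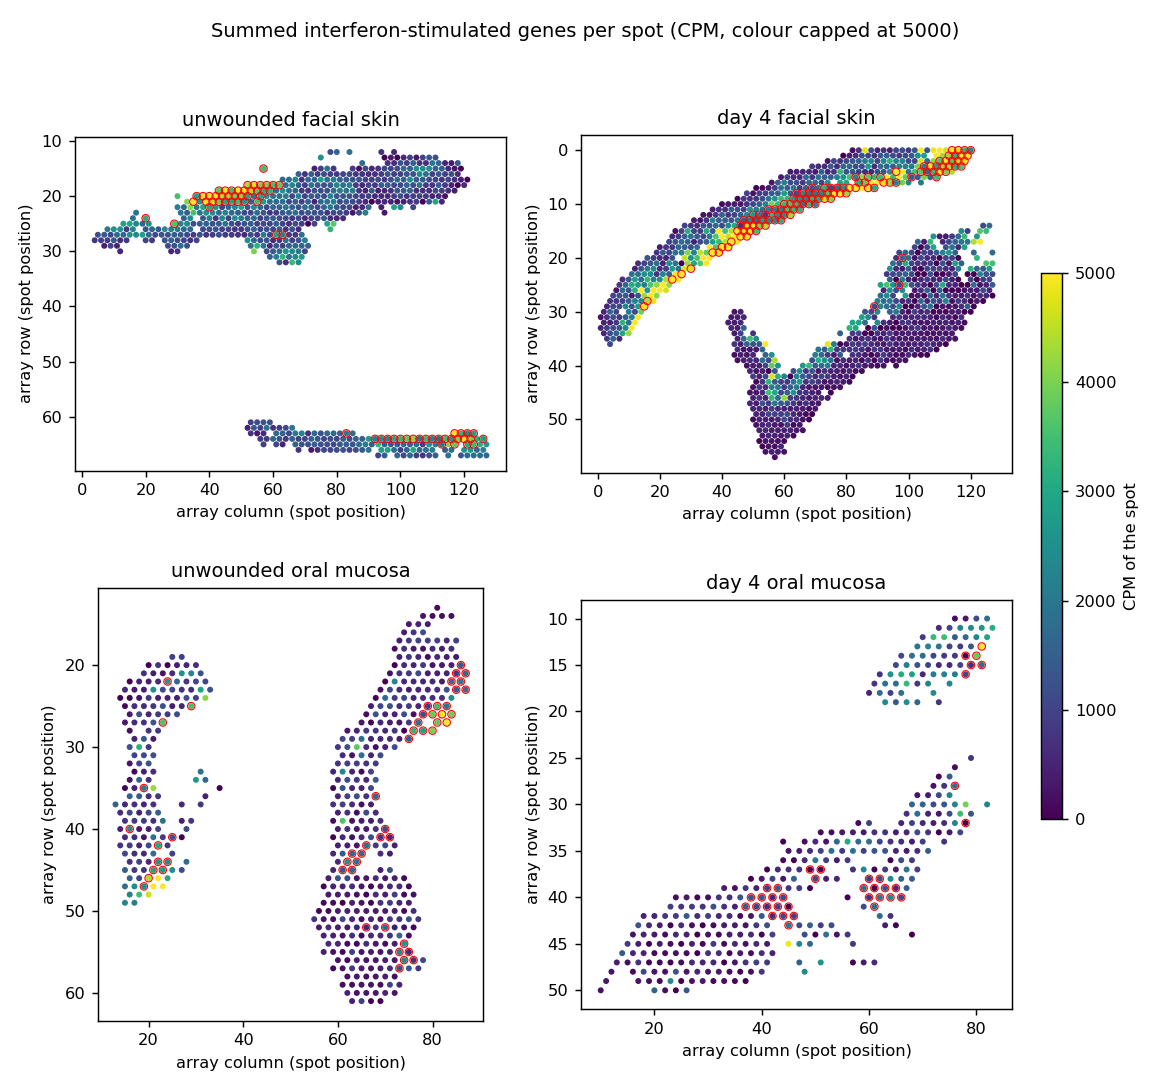
Summed CPM of the 35 members in each spot of at least 1000 UMIs, at its array row and column, with colour capped at 5000 CPM. Red rings mark the 10% of spots richest in fibroblast markers; in day 4 facial skin 107 of 110 lie in the upper piece, which sums to 2022 CPM against 600.0 CPM in the lower.

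The direction of the facial comparison therefore depended on the piece. Without the first day 4 piece, 19 members were higher and 0 lower than in the unwounded section, and without the second, 0 were higher and 32 lower. Shares of all genes were not counted, here or below, for whole-section comparisons that left out some of a section. The pieces, chosen after seeing the data from array positions alone, also differed in tissue makeup. Fibroblast markers were at 4801 CPM in the first piece and 16075 CPM in the second, macrophage and monocyte markers at 572 and 1372 CPM, and markers of cornifying epidermis at 55365 and 28623 CPM. In the second piece 8 of 9 fibroblast, 12 of 12 macrophage and 7 of 7 endothelial markers were higher. With the spots of the section ranked by their share of fibroblast markers and divided into 4 equal groups, the second piece was above the first within all 4, at 864 against 373 CPM in the poorest group, 1252 against 688, 2072 against 1517, and 4163 against 1632 CPM in the richest. In that richest group the fibroblast markers themselves still differed, at 42930 against 29136 CPM, and their part in the result was not tested.

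**Figure D3:**
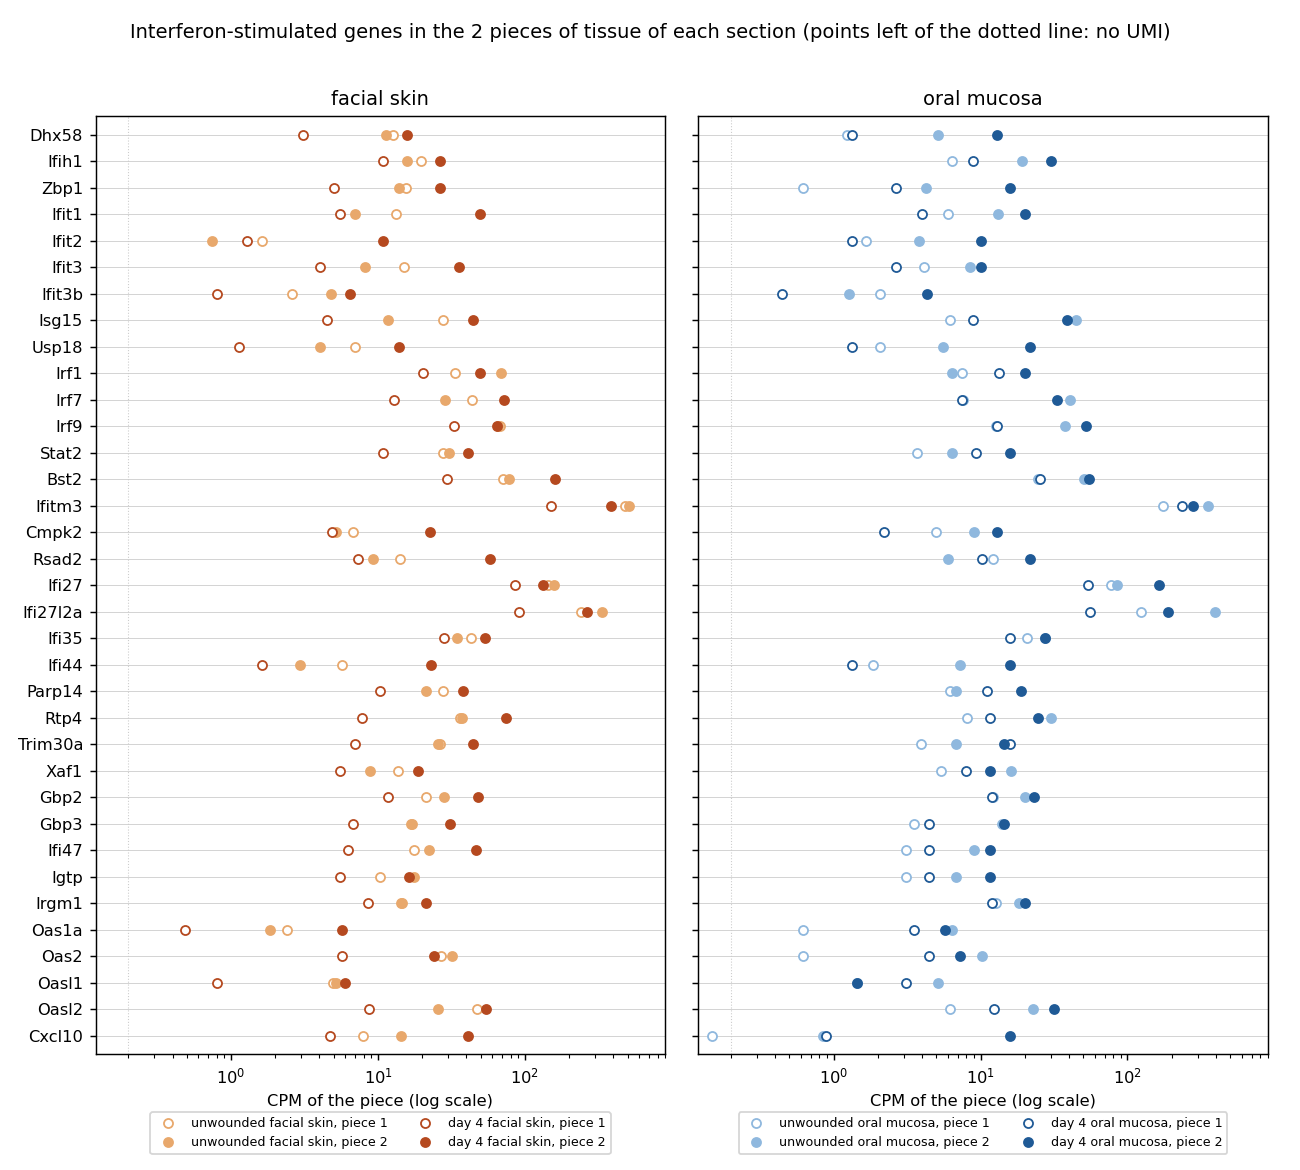
Level of each member in the 2 pieces of tissue of each section, in CPM on a log axis, facial skin left and oral mucosa right; open points are the first piece and filled points the second. In facial skin the first day 4 piece lies below both unwounded pieces for 34 of 35 members and the second above both for 28. These counts use the order of CPM alone and were not made over all genes. Pieces are numbered by their spots within a section and are not matched between sections.

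Among the sensors of nucleic acid, no member was higher in the day 4 facial section as a whole. Ifih1, the RNA sensor MDA5, was at 18.8, 16.7, 10.6 and 14.3 CPM. Dhx58, the related helicase LGP2, was at 12.3, 7.85, 2.47 and 3.99 CPM, and Zbp1, a sensor of left-handed nucleic acid that can trigger cell death, at 15.2, 13.0, 1.78 and 5.66 CPM. All 3 were lower in oral mucosa than in facial skin before wounding. Between the day 4 facial pieces Zbp1 stood at 5.004 and 26.5 CPM, on either side of its levels of 15.6 and 14.0 CPM in the unwounded pieces.

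Of the transcription factors of the pathway, Irf9 was lower in day 4 facial skin and the other 3 did not pass the rule. Irf9, the DNA-binding part of the type I interferon complex, was at 67.1, 44.5, 21.4 and 22.6 CPM. Stat2, its partner, was at 28.2, 22.04, 4.67 and 10.7 CPM, and Irf1, a factor driven mainly by interferon gamma, at 41.3, 31.2, 7.28 and 15.3 CPM. Irf7, which amplifies type I interferon production, was at 40.4, 35.2, 18.5 and 13.3 CPM. For all 4, both facial sections were above both oral sections. Stat2 and Irf1 were higher on day 4 in oral mucosa, while the facial values, which did not pass the rule, were lower on day 4.

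Isg15 and Usp18 act as a pair, a ubiquitin-like protein and the enzyme that removes it and damps the receptor. Isg15 was at 24.1, 19.3, 18.7 and 15.6 CPM and Usp18 at 6.28, 5.84, 3.43 and 5.99 CPM. Neither passed the rule in any of the 4 comparisons between sections. Within day 4 facial skin they separated widely, with Isg15 at 4.52 and 44.1 CPM in the pieces and Usp18 at 1.13 and 13.8 CPM. In unwounded oral mucosa Isg15 also split, at 6.19 and 44.4 CPM.

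The IFIT genes encode proteins that bind foreign RNA. Ifit1 was at 11.9, 22.04, 8.24 and 8.32 CPM, Ifit2 at 1.42, 5.03, 2.33 and 3.33 CPM, Ifit3 at 13.5, 15.8, 5.63 and 4.33 CPM and Ifit3b at 3.10, 3.02, 1.78 and 1.33 CPM. In the day 4 facial pieces Ifit1 was at 5.49 and 49.5 CPM and Ifit3 at 4.04 and 35.7 CPM, and in the unwounded pieces Ifit1 was at 13.2 and 7.00 CPM and Ifit3 at 15.2 and 8.11 CPM. The second day 4 piece thus stood above the rest of facial skin, and the first below. Each section was also cut into 4 parts by the medians of its spots' rows and columns, and without the part of low rows and low columns on day 4 the Ifit1 log2 ratio of the whole sections was -0.00996, with 0 members higher and 18 lower.

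Rsad2 (viperin, which makes an antiviral nucleotide) and its genomic neighbour Cmpk2, a nucleotide kinase, followed the IFIT genes. Rsad2 was at 12.9, 26.3, 10.0 and 12.6 CPM and Cmpk2 at 6.37, 11.5, 6.18 and 4.66 CPM. The day 4 facial pieces held Rsad2 at 7.26 and 58.1 CPM and Cmpk2 at 4.84 and 22.7 CPM, and the unwounded pieces held Rsad2 at 14.1 and 9.21 CPM and Cmpk2 at 6.76 and 5.16 CPM. In oral mucosa neither passed the rule between day 4 and unwounded.

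The OAS genes, a family named for an enzyme that senses double-stranded RNA, did not follow in the whole sections. Oas2 was at 28.1, 12.5, 3.71 and 4.99 CPM and Oasl2 at 42.4, 26.0, 11.7 and 16.6 CPM. Oas1a was at 2.26, 2.42, 2.47 and 3.99 CPM and Oasl1 at 5.03, 2.72, 2.75 and 2.66 CPM; neither passed the rule in any of the 4 comparisons, at counts that leave wide intervals. Oas2 was one of 4 members, with Irf9, Ifi27 and Ifitm3, that were lower in both day 4 facial pieces than in both unwounded pieces, at 5.65 and 24.1 CPM against 26.7 and 32.1 CPM. For Oas2, Irf9 and Ifi27 the 95% intervals of the second day 4 piece overlapped those of the unwounded pieces.

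Among membrane restriction factors and the IFI27 family, Ifitm3 and Ifi27l2a were lower on day 4 in facial skin. Ifitm3, which blocks viral entry, was at 486, 237, 233 and 253 CPM, highest in unwounded facial skin. Bst2 (tetherin, which holds budding virus on the cell) was at 72.2, 78.5, 33.2 and 33.0 CPM. Ifi27 was at 147, 103, 80.4 and 79.2 CPM and its relative Ifi27l2a at 263, 157, 213 and 86.5 CPM. Ifi27l2a was lower on day 4 in both tissues, and its oral log2 ratio was -1.297 (95% interval -1.49 to -1.11). By piece the facial levels of Ifi27l2a were 241 and 336 CPM unwounded and 91.2 and 265 CPM on day 4, and the oral levels were 124 and 395 CPM and 55.4 and 189 CPM, so the pieces of the 2 stages overlapped in both tissues.

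The interferon-inducible GTPases, which attack the vacuoles of intracellular microbes, did not pass the rule between day 4 and unwounded in either tissue as whole sections. Gbp2 was at 22.9, 25.5, 14.7 and 14.3 CPM, Gbp3 at 16.8, 15.9, 6.86 and 7.32 CPM and Ifi47 at 18.7, 21.3, 4.94 and 6.32 CPM. Igtp was at 12.0, 9.66, 4.39 and 5.99 CPM and Irgm1 at 14.7, 13.3, 14.6 and 13.6 CPM. The others but not Irgm1 passed as lower in oral mucosa before wounding, though the Gbp2 ratio turned to 0.13 with TMM scaling and the Igtp ratio to 0.31 with CPM averaged over spots.

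Among the remaining effectors, Parp14 (an ADP-ribosyltransferase) was at 26.1, 20.7, 6.45 and 12.6 CPM and Trim30a (a TRIM protein that dampens inflammatory signalling) at 26.4, 20.7, 4.80 and 16.0 CPM. Ifi44 was at 5.03, 9.56, 3.57 and 4.99 CPM, Ifi35 at 41.3, 37.6, 22.6 and 18.6 CPM, Rtp4 at 36.7, 32.7, 15.5 and 14.6 CPM and Xaf1 at 12.7, 10.4, 8.92 and 8.99 CPM. Cxcl10, a chemokine for T cells, had 112, 180, 2 and 13 UMIs, or 9.38, 18.1, 0.275 and 4.33 CPM. Its oral counts were too few for the day 4 comparison. In day 4 facial skin Cxcl10 stood at 4.68 and 40.8 CPM in the 2 pieces.

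In oral mucosa, day 4 against unwounded gave 5 members higher and 1 lower of 33 measured, where 20.6% of 12544 genes were higher and 3.56% lower. The share of members that were higher was below that of all genes. Higher were Trim30a at 1.734 (95% interval 1.08 to 2.41), Zbp1 at 1.66 (95% interval 0.54 to 2.83), Stat2 at 1.19 (95% interval 0.45 to 1.93), Irf1 at 1.07 (95% interval 0.47 to 1.67) and Parp14 at 0.97 (95% interval 0.31 to 1.62). TMM scaling, which moved every oral log2 ratio by -0.34, left 1 member higher and 3 lower, and leaving out mitochondrial and the 50 most abundant genes left 2 higher and 1 lower. In spots with under 1% skeletal muscle markers 1 was higher and 3 lower, and with CPM averaged over spots 11 and 3. That average left out the 652 unwounded oral spots of under 100 UMIs. At 100 UMIs or more over both sections, 0 were higher.

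Between stages, the oral pieces gave few members a direction. Summed levels were 569 and 1301 CPM in the 2 unwounded pieces and 583 and 1262 CPM in the 2 day 4 pieces. The second piece, which is only the one with fewer spots, was the higher one in both sections. That held for 15 of 28 measured members before wounding (16.7% of genes higher, 4.64% lower) and 9 of 21 on day 4 (13.6% and 5.93%), with 0 members lower in both. Without the first day 4 piece 16 members were higher and 0 lower, and without the second 1 was higher and 3 lower. Without the first unwounded piece 2 members were higher and 6 lower, and without the second 9 were higher and 0 lower. For these counts no share of all genes was obtained. In 5 members both day 4 pieces stood above both unwounded pieces, namely Irf1, Stat2, Parp14, Trim30a and Cxcl10, the last on 2 UMIs in the first day 4 piece. Trim30a was at 16.0 and 14.4 CPM on day 4 and 3.92 and 6.83 CPM before wounding, and Stat2 at 9.31 and 15.8 CPM and 3.71 and 6.40 CPM. Macrophage and monocyte markers were higher on day 4 for 12 of 12 genes, at 759 against 229 CPM in sum, and neutrophil markers summed to 3826 against 40.4 CPM. The pieces differed in makeup too. Skeletal muscle markers were at 62104 and 33047 CPM in the unwounded pieces and at 53727 and 20686 CPM on day 4, and markers of cornifying epidermis at 6562 and 12850 CPM and at 4243 and 21956 CPM. Neutrophil markers were at 4849 and 540.2 CPM in the day 4 pieces. Their part in the result was not tested.

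As a share of UMIs, oral mucosa held less of the interferon set than facial skin, and more genes were lower than higher there. Mitochondrial genes took 2.71%, 2.75%, 20.8% and 11.9% of UMIs, and a larger share of these lowers the CPM of other genes. Before wounding 22 of 35 members were lower in oral mucosa and 0 higher, where 59.7% of 14026 genes were lower and 10.1% higher. The median was -0.65 against -0.47 over all genes. With TMM scaling, which shifted the ratios up by 0.76, 11 members were lower and 2 higher. Leaving mitochondrial and the 50 most abundant genes out of the totals gave 18 lower and 0 higher. The share of all genes was not counted under either. The lowest ratios were those of Cxcl10 at -5.09 (95% interval -8.16 to -3.21), Zbp1 at -3.09 (95% interval -4.02 to -2.28), Oas2 at -2.92 (95% interval -3.54 to -2.35), Stat2 at -2.60 (95% interval -3.15 to -2.09) and Irf1 at -2.50 (95% interval -2.94 to -2.09). In 20 of 35 members both oral pieces were below both facial pieces, and in 1 both were above. This order was not counted over all genes. The muscle-rich makeup of the oral sections moved with these values and its part was not tested. In spots with under 1% skeletal muscle markers 3 members were higher, in place of 0. The count of lower members in these spots is not given here. The 3 alone therefore do not show that the lower levels of the 22 members went away or reversed without muscle.

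On day 4, 20 of 35 members were lower in oral mucosa than in facial skin and 0 higher, where 35.5% of 13633 genes were lower and 11.5% higher. Ratios were lowest for Cxcl10 at -2.07 (95% interval -3.00 to -1.26), Ifit3 at -1.87 (95% interval -2.81 to -1.05), Ifi47 at -1.75 (95% interval -2.52 to -1.08), Ifit1 at -1.41 (95% interval -2.06 to -0.81) and Irf7 at -1.40 (95% interval -1.91 to -0.93). TMM scaling, with a shift of 0.36, left 11 lower. This count depended on the pieces of both tissues: without the first day 4 facial piece 32 members were lower, and without the second 1 was lower and 5 higher. Without the first day 4 oral piece 0 were lower and 4 higher. For these counts too, no share of all genes was obtained. In 2 members, Irf1 and Ifi35, both oral pieces were below both facial pieces, Irf1 at 13.3 and 20.2 CPM against 20.2 and 49.8 CPM, where the nearest values are equal as rounded. The Irf1 ratio was 0.04 with CPM averaged over spots.

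Within each section, summed levels were higher where markers of connective tissue, macrophages and dendritic cells were richest. For this, the 10% of spots with the largest share of UMIs in a marker list was compared with the other spots of at least 1000 UMIs. Fibroblast-rich spots held 3935 against 1330.3 CPM of the summed members in unwounded facial skin, 4301 against 931 CPM on day 4, 2201 against 745 CPM in unwounded oral mucosa and 1518 against 714 CPM on day 4. In facial skin 32 of 34 and 32 of 35 members were higher in these spots, where 21.5% and 22.2% of genes were. In oral mucosa 12 of 28 and 7 of 21 were higher (20.2% and 17.4% of genes). Macrophage-rich spots followed, with 28 of 34, 31 of 35, 10 of 28 and 4 of 21 members higher (18.9%, 19.2%, 12.3% and 14.9% of genes). Spots rich in dendritic and Langerhans cell markers gave 25 of 34, 32 of 35, 21 of 28 and 3 of 21 higher (15.3%, 18.2%, 14.6% and 8.09%). Fibroblast-rich and macrophage-rich spots overlapped, in 37 of 66, 33 of 110, 28 of 53 and 10 of 37 fibroblast-rich spots, so a spot's expression cannot be given to one cell type.

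**Figure D4:**
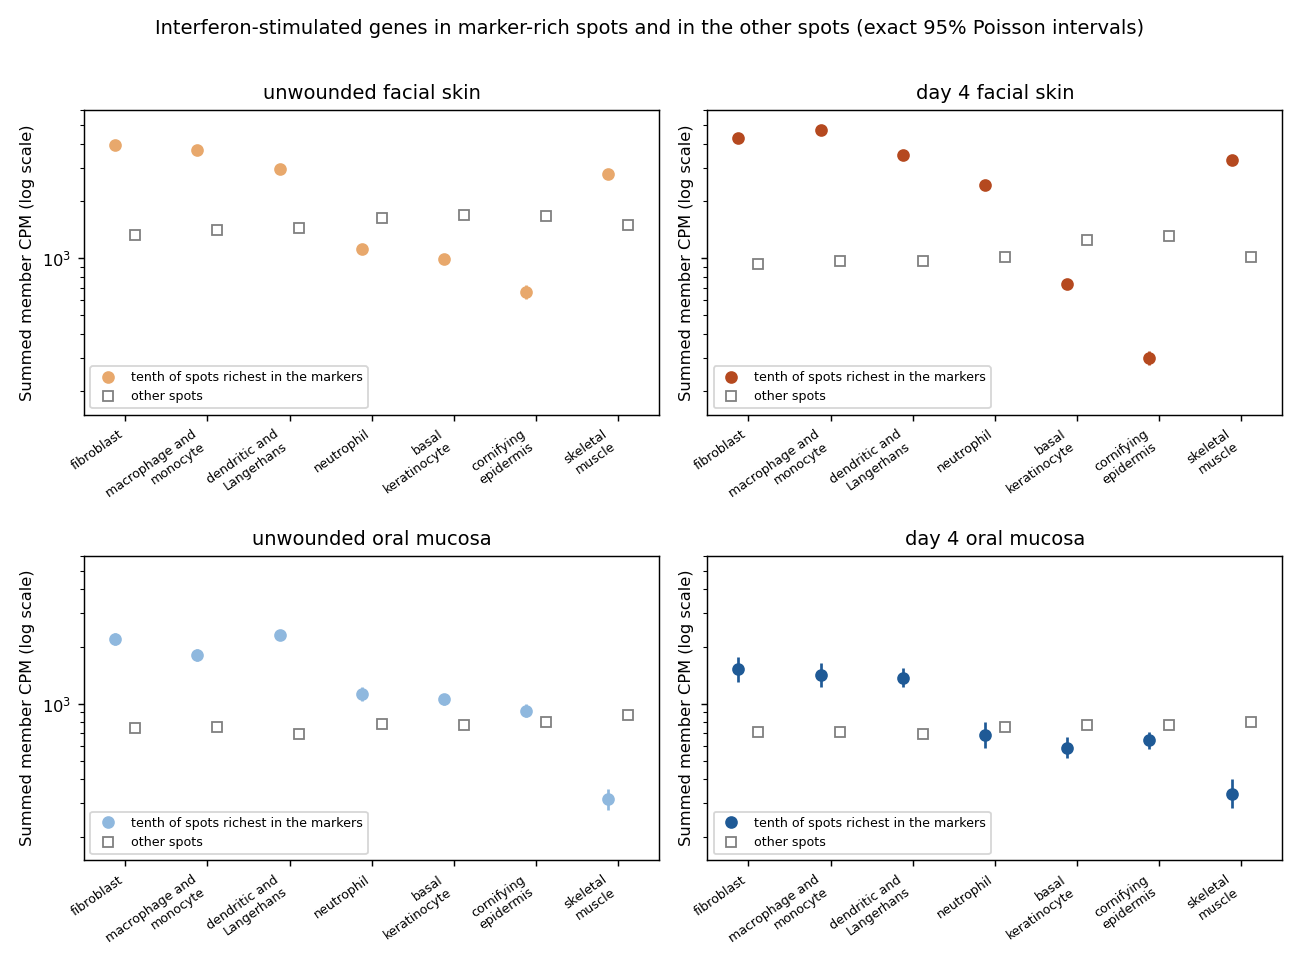
Summed CPM of the members on a log axis in the 10% of spots richest in each marker list (filled) and in the other spots of the section (open squares), with exact 95% Poisson intervals, many of them smaller than the points. Fibroblast-, macrophage- and dendritic-cell-rich spots are above the rest in all 4 sections.

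Spots rich in cornified epidermis in facial skin, and in muscle in oral mucosa, were low. In day 4 facial skin the 10% of spots richest in cornifying epidermis markers held 299 against 1302 CPM, with 29 of 35 members lower (40.9% of genes), and in unwounded facial skin 665 against 1666 CPM, with 22 of 34 lower (29.3%). In unwounded oral mucosa the cornifying spots were not low, at 922 against 797 CPM, and on day 4 they held 642 against 771 CPM. Basal keratinocyte spots held 991 against 1678 CPM and 730.0 against 1244 CPM in the facial sections. In unwounded oral mucosa basal keratinocyte spots were instead above the rest, at 1054 against 778 CPM, with Irf9, Stat2, Ifi27 and Ifitm3 higher (4 of 28 members, where 35.7% of genes were). Skeletal muscle spots of oral mucosa held 314 against 876 CPM before wounding and 337 against 807 CPM on day 4, with 8 of 28 and 3 of 21 members lower (31.4% and 32.4% of genes). These shares were below those of all genes, so the counts show nothing particular to the members. The muscle-rich spots of facial skin, where 0.0477% and 0.229% of UMIs in muscle markers were enough to enter, were the opposite, at 2768 against 1493 CPM and 3298 against 1016 CPM.

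Neutrophil-rich spots did not stand out in the sections with most neutrophil markers. They held 1116 against 1636 CPM of the set in unwounded facial skin, where 1 of 34 members (Isg15) was higher and 11 lower (4.84% and 17.6% of genes). In day 4 oral mucosa they held 688 against 751 CPM, with 0 of 21 higher (11.5% of genes). In day 4 facial skin, where a share of 0.0795% of a spot's UMIs was enough to enter the group, they held 2427 against 1017 CPM, and 27 of 35 members were higher (13.9% of genes). Of these 110 spots, 57 were also fibroblast-rich and 99 lay in the second piece.

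Fibroblast-rich spots were also compared between sections, a comparison chosen after seeing the data. A spot needed 1.77% of its UMIs in fibroblast markers to enter in unwounded facial skin and 3.80% on day 4. In facial skin 11 of 34 members were higher on day 4 and 2 lower, where 7.68% of 10235 genes were higher and 10.2% lower, and the median was 0.38 against -0.08 over all genes. Cxcl10 was at 122 against 14.2 CPM (log2 ratio 3.10, 95% interval 2.32 to 3.95). The day 4 facial spot with most Cxcl10 held 32 of the section's 180 UMIs of this gene. The counting interval does not allow for such concentration, and the ratio without that spot is not given here. Rsad2 was at 182 against 28.4 CPM (log2 ratio 2.68, 95% interval 2.11 to 3.28), and Ifit1 at 159 against 30.9 CPM (log2 ratio 2.36, 95% interval 1.80 to 2.95). These 3 thus differed more in fibroblast-rich spots than in whole sections. The other 8 higher members were Ifit2, Ifi44, Cmpk2, Rtp4, Ifit3, Ifi47, Gbp3 and Bst2, and the last was at 356 against 224 CPM. Ifi27 was lower, at 94.6 against 213 CPM, and so was Ifi27l2a, at 640.0 against 1134 CPM. Of the 11 higher members 10 had a promoter window and 6 of these held the response element core, as did 10 of the 17 other members with a window.

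**Figure D5:**
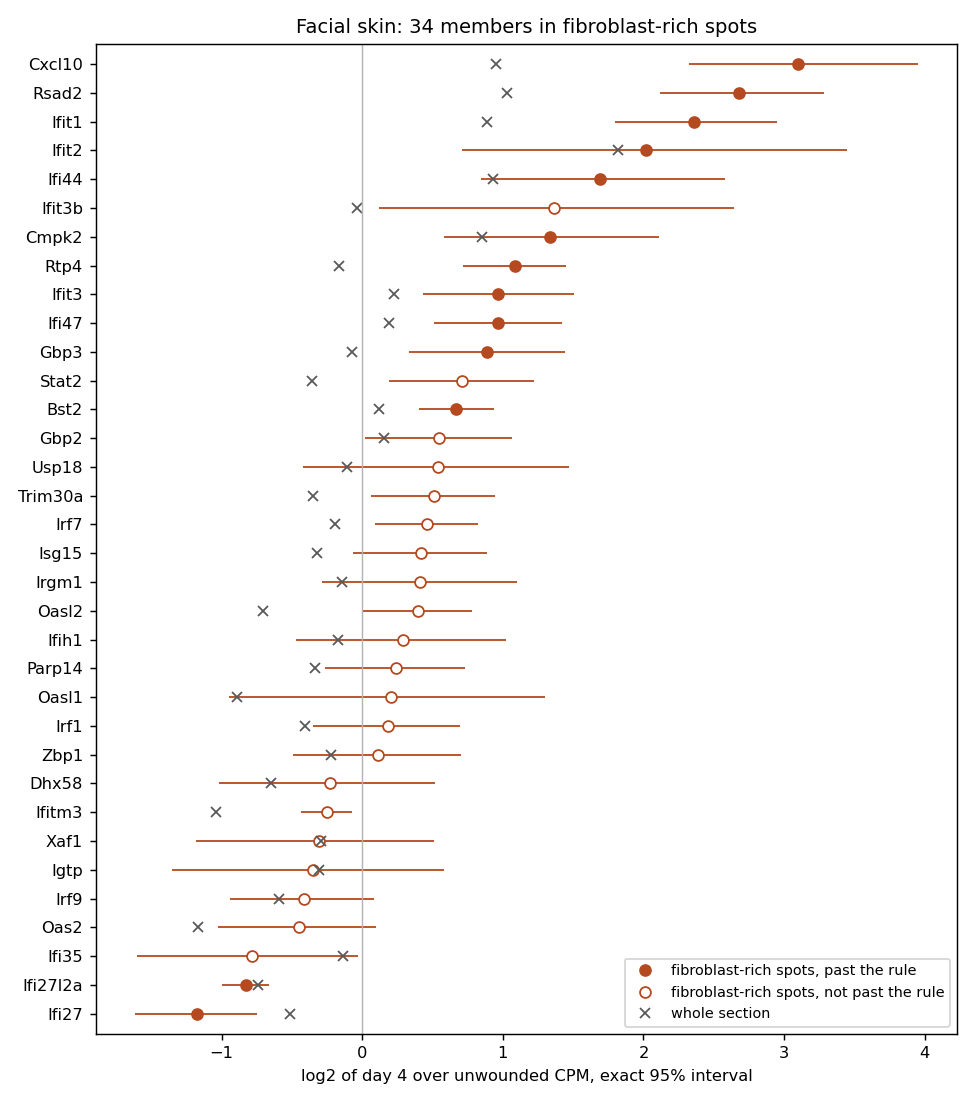
Log2 ratio of day 4 over unwounded CPM in fibroblast-rich spots of facial skin for 34 members, with exact 95% intervals; filled points passed the rule and crosses are whole sections. Cxcl10, Rsad2 and Ifit1 have the highest ratios, and Ifi27 and Ifi27l2a the lowest.

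The fibroblast-rich spots also carry the pieces. On day 4, 107 of 110 lay in the second facial piece, and in the unwounded section 39 lay in the first and 26 in the second. Leaving out 1 of the 4 parts of a section at a time gave 5 to 15 members higher. The 5 came without the part of low array rows and columns on day 4, the 15 without that part of the unwounded section, and without the part of high rows and columns of the unwounded section 6 were higher. Without neutrophil-rich spots 11 were higher and 1 lower.

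In fibroblast-rich oral spots 7 members had enough UMIs. None was higher (12.0% of genes), and Ifi27l2a at 152 against 751 CPM and Ifitm3 at 320.4 against 594 CPM were lower on day 4, where 8.89% of genes were. Between tissues, 17 of 31 members were lower in oral than facial fibroblast-rich spots before wounding (17.8% of genes) and 14 of 29 on day 4 (6.27% of genes), and 0 were higher in both (6.39% and 4.83%). On day 4 Bst2 was at 75.9 against 356 CPM, Rtp4 at 42.2 against 219.5 CPM and Oasl2 at 16.9 against 160.4 CPM. The day 4 oral values rest on 37 spots and 118602 UMIs. Before wounding, 2 members were lower without the part of high array rows and columns in oral mucosa, where 13 fibroblast-rich spots remained, and 7 without the part of low rows and columns in facial skin.

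Macrophage-rich spots gave a like picture. In facial skin 10 of 32 members were higher on day 4 and 0 lower (5.93% and 6.74% of genes), and in oral mucosa Trim30a was higher and Ifi27l2a lower of 7 (16.7% and 9.2%). Between tissues 15 of 27 were lower in oral mucosa before wounding (25.6%) and 16 of 27 on day 4 (8.02%), and 0 were higher (6.94% and 5.51%).

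Members of different roles lay in the same spots. Spots in the top 10% by 10 antiviral effectors (IFIT, OAS, Rsad2 and Cmpk2) were taken first, and the other members were then measured in them. These spots held 37.3%, 51.4%, 42.3% and 46.0% of the effector UMIs and 9.02%, 4.59%, 5.89% and 5.86% of all UMIs. The effector shares are high because the effectors chose the spots, and they show no clustering by themselves. No effector UMI was seen in 185, 586, 315 and 256 spots. The chosen spots were also shallower, with a median of 14898.5, 3407.5, 5903 and 3559 UMIs against 17018, 5927, 14397 and 6992.5 in the others. In them, 15 other classical members were 3.86-, 6.10-, 5.54- and 2.91-fold the level of the other spots, and 7 members that respond strongly to interferon gamma, among them the GTPases, Irf1 and Cxcl10, were 2.82-, 7.08-, 3.84- and 4.59-fold. Macrophage markers were 3.68-, 5.04-, 3.84- and 2.16-fold and fibroblast markers 3.45-, 5.24-, 2.85- and 3.07-fold in the same spots. These spots were also clustered: 33.2%, 37.0%, 20.2% and 19.3% of their neighbours on the array belonged to the group, against 6.81%, 6.52%, 7.89% and 8.52% of the neighbours of other spots.

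Single spots ranged widely. Among spots of at least 1000 UMIs the median summed level was 1381, 1009.9, 605 and 714 CPM, and the highest spot reached 6876, 22838, 8994 and 6974 CPM. After thinning each spot to 1000 UMIs, Rsad2 was expected in 1.49%, 4.03%, 1.15% and 1.61% of spots, against 18.2%, 15.1%, 11.1% and 7.95% before thinning. Bst2 was expected in 6.93%, 11.7%, 3.39% and 3.69% after thinning. Isg15 was expected in 3.03%, 2.96%, 1.47% and 1.501%. Thinning left out 18, 45, 765 and 65 spots.

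The interferons themselves were almost not seen. Of 20 interferon genes, 17 had no UMI in any section. Ifnz had 5, 1, 1 and 0 UMIs, Ifng had 3, 3, 0 and 0, and Ifna13 had 1 UMI, in unwounded oral mucosa. Markers of plasmacytoid dendritic cells summed to 40.2, 38.05, 11.9 and 31.0 CPM, of which Pld4 alone gave 35.9, 33.4, 10.4 and 29.96 CPM, and Klra17 and Pacsin1 had 0 UMIs in both oral sections. T and NK cell markers summed to 80.1, 62.0, 13.3 and 17.6 CPM.

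Receptors and signalling genes of the pathway gave different counts in the 2 tissues, and so did all genes, of which 6.09% were higher and 8.59% lower on day 4 in facial skin and 20.6% higher and 3.56% lower in oral mucosa. In facial skin 0 of 6 receptor genes were higher on day 4 and 1 lower, Ifngr1, at 117 against 216 CPM. In oral mucosa 4 of 6 were higher, among them Ifnar2 at 25.6 against 11.5 CPM and Ifngr1 at 119 against 62.6 CPM. Of 10 JAK-STAT genes and inhibitors, 0 were higher and 2 lower in facial skin, and 7 higher and 0 lower in oral mucosa. Socs3, a feedback inhibitor induced by many cytokines, was at 21.4 against 90.4 CPM in facial skin and at 45.6 against 6.45 CPM in oral mucosa. The difference between tissues was not tested.

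Upstream sensing genes gave 0 higher and 6 lower of 13 in facial skin, and 4 higher and 0 lower of 12 in oral mucosa, where all genes gave 6.09% and 8.59%, and 20.6% and 3.56%. Irf8, a factor of myeloid cells, was at 10.7 against 19.5 CPM and at 14.0 against 1.92 CPM. Of 44 further interferon-induced genes, 4 were higher and 9 lower in facial skin, and 15 higher and 2 lower of 36 in oral mucosa. Ifitm1, a restriction factor related to Ifitm3, was at 11.4 against 106 CPM in facial skin and at 70.9 against 6.73 CPM in oral mucosa. Genes of MHC class I and the immunoproteasome gave 0 higher and 7 lower of 17 in facial skin, and 1 higher and 0 lower of 16 in oral mucosa. Before wounding 17 of 17 were lower in oral mucosa (59.7% of genes), with H2-K1 at 212 against 1833 CPM. Between the day 4 facial pieces, 35 of 41 further interferon-induced genes and 10 of 17 MHC class I genes were higher in the second piece, and 0 lower (13.6% and 3.71% of genes).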

How the data were processed

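The 4 Visium sections were read as the authors' deposited matrices of raw UMI counts per gene and spot, with spot positions. These counts came from Space Ranger 1.3.1, per the file headers, against mm10, per the submitters' processing notes. Counts were summed per section, piece or group of spots and divided by the total (CPM). A comparison used exact 95% Poisson intervals, a floor of 20 UMIs and a 1.5-fold limit, and was run on every gene. Log2 medians added 10 CPM. Spots needed 1000 UMIs for spatial comparisons. Totals of 3004174 to 11939479 UMIs mean that 3 UMIs equal 0.251 to 0.999 CPM. Promoter windows came from RefSeq. Python 3.11.15, numpy 2.4.6, scipy 1.17.1, pandas 2.3.3 and R 4.3.3 with edgeR 4.0.16, used for TMM factors only, were run. The interval and call steps were tested on simulated data. The list of members and the other lists were drawn up with earlier results of these data known. Named were the members past the rule and, by role, those that illustrate each group. Sections shared 46 to 347 spot barcodes, which are array positions and not cells. Alternatives changed scaling, spots, limits and parts of sections.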

Additional observations from a re-analysis of the deposited data

Results flagged for a closer look

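The 95% counting interval of the wound log2 ratio lay above 0 in oral mucosa and below 0 in facial skin for 4 members. The oral ratio minus the facial ratio was 1.48 for Irf1 (1.07 and -0.40), 1.55 for Stat2 (1.19 and -0.36), 1.305 for Parp14 (0.97 and -0.33) and 2.08 for Trim30a (1.734 and -0.35). None of the 4 facial ratios passed the rule. The oral ratio of Zbp1 passed it too (1.66), but the interval of its facial ratio of -0.22 ran from -0.56 to 0.11. Over the 32 members with at least 10 UMIs in every section, the interval of the difference lay above 0 for 11 and below 0 for 4, which were Ifit1 at -0.88, Rsad2 at -0.69, Ifi27l2a at -0.55 and Cmpk2 at -1.26. This was not counted over all genes, of which 20.6% were higher on day 4 in oral mucosa and 6.09% in facial skin. The 11 and 4 therefore cannot be read as particular to the members. With 1 section a group the difference was not tested over animals. In the second day 4 facial piece Stat2, Parp14 and Trim30a were above both unwounded facial pieces, so the facial direction differed between pieces.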

How the results depend on the processing

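No paired analysis was possible because each group had 1 section. The cause of each difference below was not tested. Day 4 against unwounded facial skin gave 10 members higher and 1 lower with CPM averaged over spots (Dhx58 at 0.13), 12 lower without neutrophil-rich spots, and 2 higher and 2 lower at a 2-fold limit. Oral mucosa gave 1 higher and 3 lower with TMM, 2 higher without mitochondrial and abundant genes, 11 higher and 3 lower averaged over spots, 1 higher and 3 lower in spots with under 1% muscle markers, and 0 higher at 100 UMIs. Unwounded oral against facial gave 2 higher and 11 lower with TMM (Gbp2 at 0.13), 1 higher averaged over spots (Igtp at 0.31) and 3 higher with under 1% muscle markers. The counts of lower members in the last 2 of these settings are not given. Their higher counts alone therefore show no reversal of the set. On day 4, 11 were lower with TMM and 13 with under 1% muscle markers, and Irf1 was at 0.0352 averaged over spots. Without Ifitm3 the sums were 1106, 897, 577 and 497 CPM. With the top 25% of spots, log2 ratios were 1.34, 2.28, 1.36 and 1.31 for fibroblast-rich spots; -0.79, 1.18 and 0.30 for neutrophil-rich spots of unwounded facial, day 4 facial and unwounded oral sections; and -1.24, 0.60 and 0.21 for basal keratinocyte spots of day 4 facial, unwounded oral and day 4 oral sections. Classical members were then 3.27-, 4.69-, 3.29- and 1.89-fold, and gamma-responsive members 4.85-, 2.10- and 2.73-fold outside unwounded facial skin. Isg15 thinned to 2000 UMIs was expected in 5.73% and 5.12% of facial spots. Fibroblast-rich facial spots without neutrophil-rich ones gave 1 lower.

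Leaving out a part or a piece of a section, the pieces and the fibroblast-rich comparison having been chosen after seeing the data, gave for facial wounding 0 to 19 higher, 0 to 32 lower and a median of -0.71 to 0.41. Ranges were 0 to 16, 0 to 6 and -0.28 to 0.61 for oral wounding, 0 to 2, 14 to 29 and -0.95 to -0.34 for unwounded oral against facial, and 0 to 5, 0 to 32 and -1.15 to 0.0877 on day 4. In fibroblast-rich spots 5 to 15 were higher and 1 to 3 lower (facial), 1 to 2 lower (oral), 2 to 17 lower (unwounded tissues) and 8 to 14 lower (day 4 tissues), with 0 higher in the last 3. The Ifit1 ratio in facial skin ranged from -0.00996, without the day 4 part of low array rows and columns, to 1.43, and the Parp14 ratio in oral mucosa from -0.295, without the day 4 part of low rows and high columns, to 1.61. Ratios of single members that passed the rule were also followed over the alternatives. Under changed scaling or choice of spots, 290 values kept direction and still passed, 66 kept direction only and 4 reversed. When 1 of the 4 parts was left out, the numbers were 408, 68 and 2. The parts of low rows in unwounded oral mucosa held only 18885 and 12574 of its 7285023 UMIs. Leaving these out could hardly change a ratio, and such values are included in these numbers. Oral counts limit depth most: 3 UMIs are 0.999 CPM in day 4 oral mucosa.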
